A study of Mus musculus with 6 samples.

Results

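The 6 genes described here are the metallothioneins Mt1, Mt2 and Mt3, the zinc-sensing transcription factor gene Mtf1, and the zinc transporter genes Slc30a1 and Slc39a10. They were chosen by gene symbol and are 6 of the 21881 genes listed in each of 2 deposited tables. All 6 were tested by the authors in both tables. The cells are mouse leukemia cells of the AE9a model, driven by a truncated AML1-ETO fusion protein, from a strain labelled C57/B6X129SV. In every group, controls included, both Id1 alleles are floxed and the cells carry CreER, the form of Cre that 4-hydroxytamoxifen (4-OHT) switches on. Control cells were compared with cells given CBD, which the submitters describe as an Id1 inhibitor, at 15 µM for 16 h, and with cells given 4-OHT at 0.1 µM for 48 h. The labels list 2 samples for each of these 3 groups, name no vehicle, and include no 4-OHT arm without loxP sites.

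Each table gives 1 FPKM value (a read abundance divided by gene length and by library depth) for the control and 1 for the treated group, so each gene has 4 values and no replicate spread. The tables were made separately and their control columns differ. The labels place 1 of the 2 control samples with each table, but how the samples were pooled into a column, and whether a control library was shared, is not stated. Below, "rose" and "fell" mean that the authors' deposited table gives a q under 0.05. Folds set against the other table's control column were not tested. Log2 folds compare the treated with the control column after adding 0.1 FPKM to both.

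Metallothioneins are small cysteine-rich proteins that bind zinc, copper and cadmium. When free zinc increases in the cytosol, MTF1 (metal regulatory transcription factor 1) binds metal response elements in the promoters of Mt1, Mt2 and Slc30a1 and activates them, whereas Slc39a10 is repressed by it. Slc30a1 encodes ZnT1, which moves zinc out across the plasma membrane, and Slc39a10 encodes ZIP10, which brings zinc into the cytosol. Mt1 and Mt2 are made in most tissues and are also induced by glucocorticoids and oxidative stress. Mt3, the growth inhibitory factor of brain, is known chiefly from neurons and astrocytes and responds little to metals.

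The upstream sequences of Mt1, Mt2, Mt3 and Slc30a1 are shown because the first 3 lie side by side, yet only Mt1, Mt2 and Slc30a1 are known MTF1 targets. Each is the 250 bases before the start annotated by RefSeq in GRCm38.p6, with letters matching the core of the metal response element in capitals (TGCACNC or TGCGCNC, either strand). Mt1 lies at chr8:94178839-94179088, Mt2 at chr8:94172368-94172617, Mt3 at chr8:94152357-94152606 and Slc30a1 at chr1:191906531-191906780, all on the plus strand.
Mt1: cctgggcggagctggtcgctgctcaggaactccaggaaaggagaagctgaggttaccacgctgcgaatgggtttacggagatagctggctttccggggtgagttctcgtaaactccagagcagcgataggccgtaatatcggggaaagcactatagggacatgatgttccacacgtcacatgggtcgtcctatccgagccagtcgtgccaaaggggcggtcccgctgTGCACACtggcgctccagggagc
Mt2: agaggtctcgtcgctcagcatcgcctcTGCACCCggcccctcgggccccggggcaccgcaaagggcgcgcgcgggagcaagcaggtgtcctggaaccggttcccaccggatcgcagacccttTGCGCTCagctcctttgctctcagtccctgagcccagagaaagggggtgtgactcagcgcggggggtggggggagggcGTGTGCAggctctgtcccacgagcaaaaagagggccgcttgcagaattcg
Mt3: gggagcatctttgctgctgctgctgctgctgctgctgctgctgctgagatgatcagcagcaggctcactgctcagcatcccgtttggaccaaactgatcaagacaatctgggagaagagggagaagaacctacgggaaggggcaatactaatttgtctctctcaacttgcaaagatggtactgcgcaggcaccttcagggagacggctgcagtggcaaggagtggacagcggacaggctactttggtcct
Slc30a1: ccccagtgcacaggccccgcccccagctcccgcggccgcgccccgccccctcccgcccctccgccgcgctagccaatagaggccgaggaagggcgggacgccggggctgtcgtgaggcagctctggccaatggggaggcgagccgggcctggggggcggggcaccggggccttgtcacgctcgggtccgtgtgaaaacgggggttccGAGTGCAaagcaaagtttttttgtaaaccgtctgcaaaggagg

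In these windows Mt2 had 3 matches, starting 223, 128 and 50 bases before the start, Mt1 had 1 match at 23 bases, Slc30a1 had 1 at 43 bases, and Mt3 had 0. At least 1 match was found in 21.4% of 32851 RefSeq promoter windows of this length, and at least 3 in 1.26%. With the next 50 bases included the counts were 3 for Mt1, 4 for Mt2, 2 for Slc30a1 and 1 for Mt3, against 1.97% of windows with at least 3. Mtf1 and both annotated starts of Slc39a10 had 0 in either window. The starts of the genes shown are annotated in several places, so each window depends on the start chosen. GENCODE starts of Mt1 lie 7 bases before and 122 and 152 bases after that of RefSeq. Those of Mt2 lie 46 and 242 bases after it, and those of Mt3 at it and 139 bases after it. Those of Slc30a1 lie 14 bases before and 475 bases after it. The core of the antioxidant response element (TGACNNNGC, either strand), which overlaps none of the matches above, was found 1 time each before Mt2 and Slc30a1 and in 10.2% of all windows.

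Mt1 and Mt2 were among the most abundant transcripts of these cells on the FPKM scale, which is per length. Mt1 stood at 2135 FPKM in the control and 4215 with CBD in the CBD table, and at 1443 in the control and 2036 with 4-OHT in the 4-OHT table. For Mt2 the control and CBD values were 2278 and 4176 FPKM, and the control and 4-OHT values 1736 and 2112. Among all listed genes, Mt1 ranked between 35 and 76 and Mt2 between 38 and 61 in the 4 columns. The ratio of Mt1 to Mt2 ran from 0.831 in the 4-OHT table's control to 1.01 with CBD.

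Mt3 was far lower, at 14.3 FPKM in the control and 52.0 with CBD, and at 3.28 in the control and 8.06 with 4-OHT. Mt1 exceeded Mt3 by 81.04-fold with CBD and by 440-fold in the 4-OHT table's control. Mt4, the metallothionein of squamous epithelium, is listed at 0 in all 4 columns and was not tested.

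The other genes were expressed at a modest level. Mtf1 stood at 7.87 FPKM in the control and 6.49 with CBD, and at 8.73 in the control and 7.67 with 4-OHT. For Slc30a1 the control and CBD values were 6.19 and 6.86 FPKM, and the control and 4-OHT values 7.02 and 5.46. For Slc39a10 they were 1.93 and 3.80 FPKM, and 7.23 and 6.29, so both its values in the 4-OHT table exceed both in the CBD table.

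**Figure D1:**
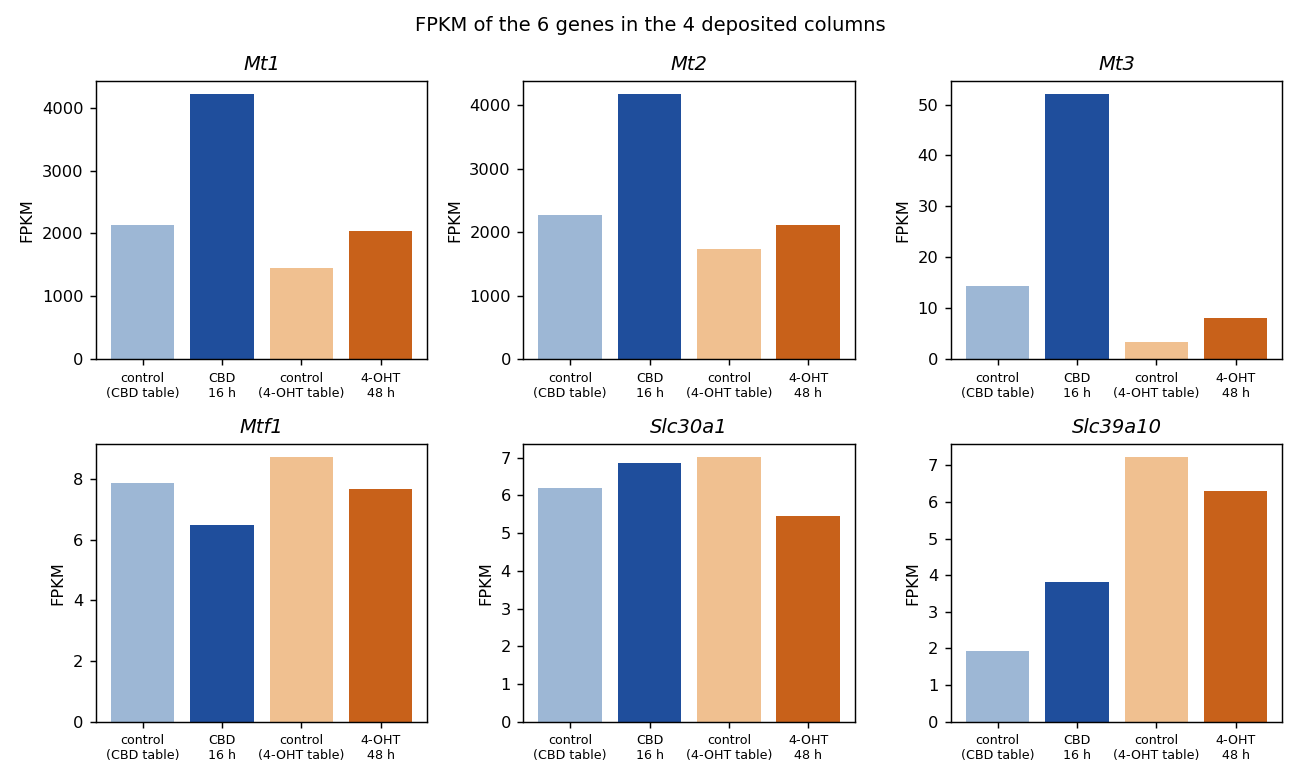
FPKM (vertical axis, from 0, scaled for each gene) of the 6 genes in the 4 deposited columns, 1 bar per column with no error because each column is 1 value. The 3 metallothioneins share the order 4-OHT control, 4-OHT, CBD control, CBD from lowest to highest, and Slc39a10 is lowest in the CBD table's control at 1.93 FPKM.

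The 3 metallothioneins had the same order of columns: the 4-OHT table's control was lowest, followed by 4-OHT, the CBD table's control and CBD. Of 9324 genes tested in both tables and at 1 FPKM or more in every column, 14.4% had this order. The control columns themselves differed. Mt3 was 4.37-fold higher in the CBD table's control than in the other, and 99.0% of genes at 1 FPKM or more in both controls differed by less on the log2 scale. Slc39a10 was 3.74-fold higher in the 4-OHT table's control, with 98.3% of genes differing by less. For Mt1 the control columns differed by 1.48-fold and for Mt2 by 1.31-fold, beside a median absolute log2 difference of 0.35 over those genes. Mtf1 and Slc30a1 differed by less than that median, at log2 values of −0.15 and −0.18.

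With 4-OHT, which asks what follows Cre induction in cells with loxP-flanked Id1, all 3 metallothioneins rose and the other 3 genes fell. Across the 11232 tested genes, 27.2% rose and 16.9% fell, so calls are common in this table. Id1 itself fell from 15.4 to 0.741 FPKM there. The CBD table gives Id1 a control value of 34.2 FPKM and a CBD value of 12.0, with no call (q = 0.133 in the authors' deposited table). Mt1 rose by a log2 fold of 0.50, or 1.41-fold, and the authors' deposited table lists its q as 0. Mt2 rose by 0.28 (1.22-fold, q = 1.55e-05 in the authors' deposited table). Mt3 had the largest fold of the 6, at 2.46-fold or a log2 fold of 1.27 (q = 8.83e-05 in the authors' deposited table).

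The 3 genes that fell did so by small amounts. Slc30a1, the zinc exporter, fell by 0.36 on the log2 scale (q = 8.15e-06 in the authors' deposited table). Slc39a10, the zinc importer, fell by 0.20 (q = 0.0190 in the authors' deposited table) and Mtf1 by 0.18 (q = 0.0120 in the authors' deposited table). Among 97 tested genes at 1000 FPKM or more in this control, the level of Mt1 and Mt2, 30 rose and 7 fell, and the smallest called log2 change was 0.13.

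Set against the control column of the CBD table, none of the 3 metallothioneins was higher with 4-OHT. Their log2 folds there were −0.068 for Mt1, −0.11 for Mt2 and −0.82 for Mt3. Of the 3055 genes that rose with 4-OHT, 51.2% also exceeded that other control. Mtf1 and Slc30a1 lay below it, at log2 folds of −0.037 and −0.18, as did 34.9% of the 1896 genes that fell. In contrast, Slc39a10 was above it, with a log2 fold of 1.65.

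With CBD, 1 of the 6 genes passed the test: Mt3 rose 3.63-fold, a log2 fold of 1.85 (q = 0.00307 in the authors' deposited table). None fell, also at an unadjusted Cuffdiff p under 0.05, where the count was 1 higher and 0 lower. Among the 13751 tested genes 18.4% rose and 7.74% fell. Mt1 was 1.97-fold higher with CBD, a log2 fold of 0.98, for which the authors' deposited table gives p = 0.0519 and q = 0.146. Mt2 was 1.83-fold higher, a log2 fold of 0.87, for which the authors' deposited table gives p = 0.0912 and q = 0.204.

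Few genes as abundant as Mt1 and Mt2 passed the CBD test. Of 95 tested genes at 1000 FPKM or more in that control, 4 rose and none fell, and the smallest called log2 change was 0.68. The median log2 fold of those 95 genes was 0.66, compared with 0.19 for every tested gene that reached 1 FPKM in either column of that table. Against the other table's control the metallothioneins were higher with CBD by more, at log2 folds of 1.55 for Mt1, 1.27 for Mt2 and 3.95 for Mt3. Of the 2533 genes that rose with CBD, 98.5% also exceeded that other control.

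The transporters and the sensor did not pass the test with CBD. Slc39a10 was 1.97-fold higher (q = 0.162 in the authors' deposited table), but 0.53 times the other table's control, so its direction depends on the control column. Slc30a1 had a log2 fold of 0.14 (q = 0.822 in the authors' deposited table), against −0.033 for the other control and −0.047 relative to the median of tested genes. Mtf1 had a log2 fold of −0.27 (q = 0.568 in the authors' deposited table) and −0.42 against the other control.

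**Figure D2:**
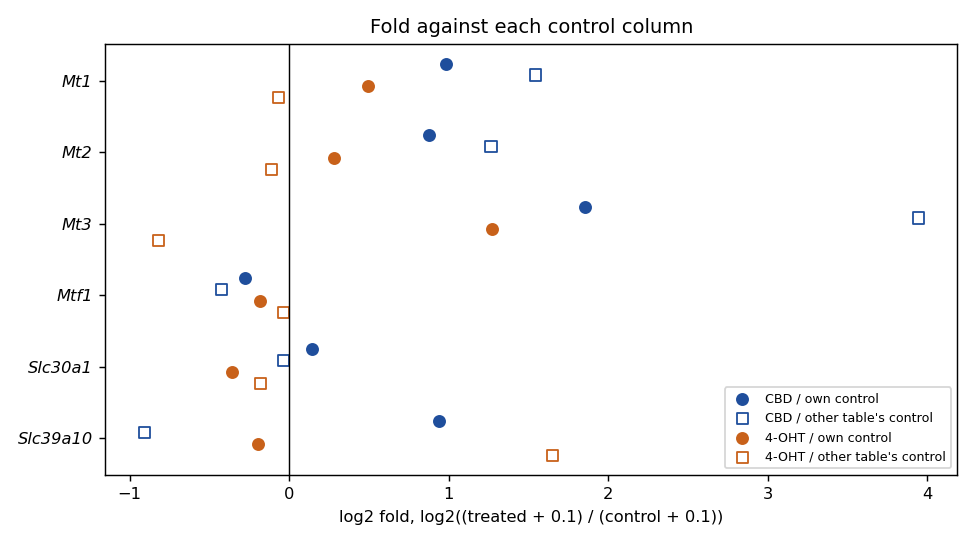
Log2 fold (horizontal axis) of the 6 genes for each treated column over each control column, with filled circles for the control of the same table and open squares for the control of the other table. The orange squares of Mt1, Mt2 and Mt3 lie below 0 (down to −0.82) while their orange circles lie above it, and the signs of Slc39a10 differ between the control columns for both treatments.

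The metallothionein transcripts are short, and in the CBD column folds were higher for short genes. The annotated transcripts of Mt2 have 388 to 511 nt, those of Mt3 440 to 536 nt and those of Mt1 549 to 1085 nt. The longest of each gene was used here. In the shortest of 20 bins of transcript length, up to 890 nt, the median CBD log2 fold was 0.65. In the longest bin it was −0.21. At 549 nt Mt1 would fall in the shortest bin, and at 1085 nt it does not. Relative to genes of like length, the CBD log2 folds were 0.47 for Mt1, 0.22 for Mt2, 1.20 for Mt3 and 0.997 for Slc39a10. With 4-OHT the trend was flat, with a median of 0.08 in the shortest bin, and the folds relative to genes of like length were 0.46 for Mt1, 0.19 for Mt2 and 1.19 for Mt3.

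**Figure D3:**
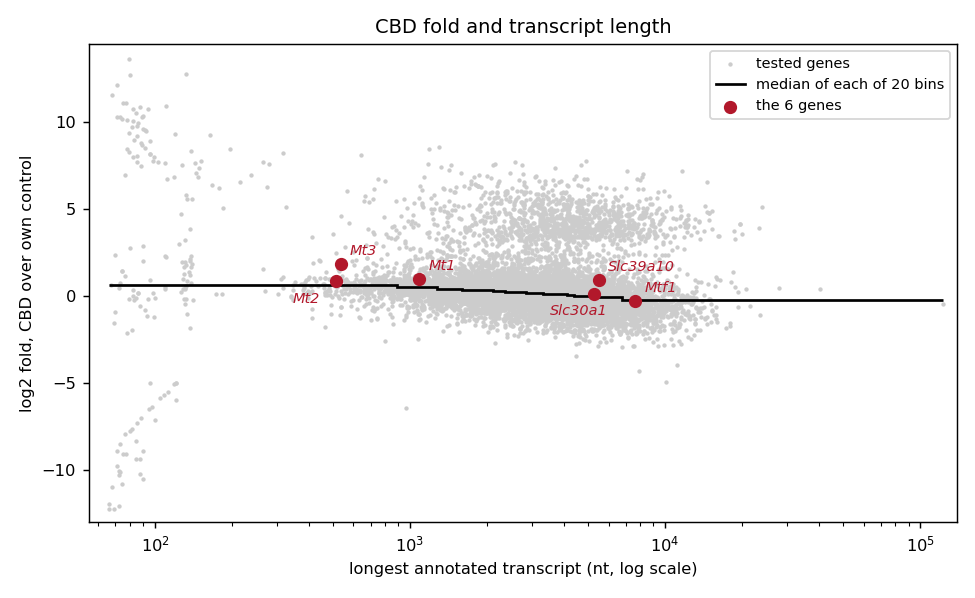
CBD log2 fold (vertical axis) against the longest annotated transcript (horizontal axis, nt, log scale), with grey points for tested genes that reach 1 FPKM in either column, a black line for the median of each of 20 length bins and red points for the 6 genes. Mt3, Mt1 and Slc39a10 lie above the line by 1.20, 0.47 and 0.997, and Mtf1, Slc30a1 and Mt2 lie nearer to it.

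Transcripts of brain cells moved with Mt3 in the CBD column. Of 10 tested neuron markers 9 rose with CBD, of 7 astrocyte markers 6 rose and of 6 oligodendrocyte markers 5 rose, and none fell. Across all genes tested with CBD 18.4% rose and 7.74% fell. The summed neuron markers stood at 191 FPKM with CBD and between 9.09 and 20.8 in the other columns, and the astrocyte markers at 139 and between 6.33 and 45.6. The oligodendrocyte markers summed to 217 FPKM with CBD and 46.6 to 49.0 elsewhere. Among the defining genes, the astrocyte water channel gene Aqp4 reached 4.57 FPKM with CBD. It is listed at 0 in both columns of the 4-OHT table. The myelin gene Mog reached 7.23 FPKM with CBD and is listed at 0 in the other 3 columns. It was not called (q = 0.0689 in the authors' deposited table). Other markers were also expressed elsewhere. In the CBD table's control, the 4-OHT control and 4-OHT, the neuron marker Tubb3 stood at 20.5, 9.33 and 8.67 FPKM. The oligodendrocyte marker Mbp stood at 38.6, 32.0 and 28.6 FPKM there. They make up most of the neuron and oligodendrocyte sums in those columns. In the 4-OHT table none of 2 tested neuron markers was called. Of 3 tested astrocyte markers 1 rose and 1 fell, and 1 of 2 oligodendrocyte markers fell. Across all genes tested there 27.2% rose and 16.9% fell. The astrocyte marker that rose was Aldoc, a glycolytic enzyme gene, from 3.07 to 15.8 FPKM. Aldoc stood at 43.2 FPKM in the CBD table's control and 84.7 with CBD, so it had the same order of columns as Mt3. It makes up most of the astrocyte sum in every column but that of the 4-OHT control, where it is 3.07 of 6.33 FPKM. The part of these transcripts in the Mt3 value was not tested, and in bulk RNA the number of cells of a type and the RNA of each cell cannot be told apart.

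The leukemia identity of the cells was checked in the same way. Kit, a receptor of progenitor and mast cells, stood between 75.0 and 95.6 FPKM and Runx1 between 38.01 and 92.6 FPKM in the 4 columns. The granulocyte genes Mpo and Prtn3 did not exceed 0.208 FPKM, Elane is listed at 0 in all columns, and the granulocyte protease gene Ctsg stood at 1.64 FPKM in the control and 7.32 with CBD, and at 0.599 and 0.292 in the 4-OHT table, with no call. Ptprc, which encodes CD45, did not exceed 0.417 FPKM. Of 6 mast cell and basophil markers 3 rose with CBD, and 2 rose and 4 fell with 4-OHT. Of 6 erythroid markers 2 rose and 1 fell with CBD, and 1 rose and 1 fell with 4-OHT. Of 6 tested microglia and macrophage markers 3 rose with CBD, and the 1 tested with 4-OHT rose. Of the tested progenitor markers, 6 with CBD and 4 with 4-OHT, 1 fell with CBD, and 1 rose and 1 fell with 4-OHT. Across all tested genes 18.4% rose and 7.74% fell with CBD, and 27.2% rose and 16.9% fell with 4-OHT.

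The wider zinc transporter families comprise 10 exporters (SLC30) and 14 importers (SLC39), Slc30a1 and Slc39a10 included. Of 20 tested with CBD, 6 rose and none fell (9 and 0 at an unadjusted Cuffdiff p under 0.05), where 18.4% of all tested genes rose and 7.74% fell. Of 19 tested with 4-OHT, 2 rose and 6 fell, where 27.2% of all tested genes rose and 16.9% fell. Without Slc30a1 and Slc39a10, 6 of 18 rose with CBD, and 2 of 17 rose and 4 fell with 4-OHT. With CBD the exporters had a median log2 fold of 0.51 and the importers of 0.60, beside 0.29 for all tested genes. With 4-OHT the medians were −0.095 and −0.18, beside 0.05.

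Importers that rose with CBD differed in level. Slc39a7, which releases zinc from the endoplasmic reticulum, rose from 75.3 to 114 FPKM, the highest level of the transporters in that column, and stood at 74.5 and 74.2 FPKM in the 4-OHT table. Slc39a11 rose from 9.82 to 23.2 FPKM with CBD and fell from 11.2 to 8.15 with 4-OHT. Slc39a14, which carries zinc and also iron not bound to transferrin, rose from 0.599 to 2.64 FPKM. Slc39a12, known chiefly from brain, rose from 0.0101 to 2.38 FPKM with CBD and is listed at 0 in both columns of the 4-OHT table.

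Among exporters, Slc30a7, which fills the secretory pathway with zinc, rose from 5.40 to 8.68 FPKM with CBD. Its q in the authors' deposited table was 0.0479, close to the threshold. Slc30a4, which loads vesicles, rose from 0.0171 to 0.811 FPKM. As with Mt3, the brain-enriched Slc39a12 moved beside the neural markers above, and their part in it was not tested.

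With 4-OHT the called transporter genes moved little, and the largest log2 fold among them was the −0.45 of Slc39a11. Slc30a9, which exports zinc from mitochondria, rose from 21.5 to 28.2 FPKM and Slc39a4, the importer of intestinal zinc uptake, from 39.2 to 45.4. Besides Slc30a1, Slc39a10 and Slc39a11, those that fell were Slc39a8, from 38.03 to 32.9 FPKM, Slc30a2, from 40.6 to 34.4, and Slc39a6, from 8.52 to 7.55. Slc39a8 failed the authors' estimation in the CBD table and was not tested there.

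**Figure D4:**
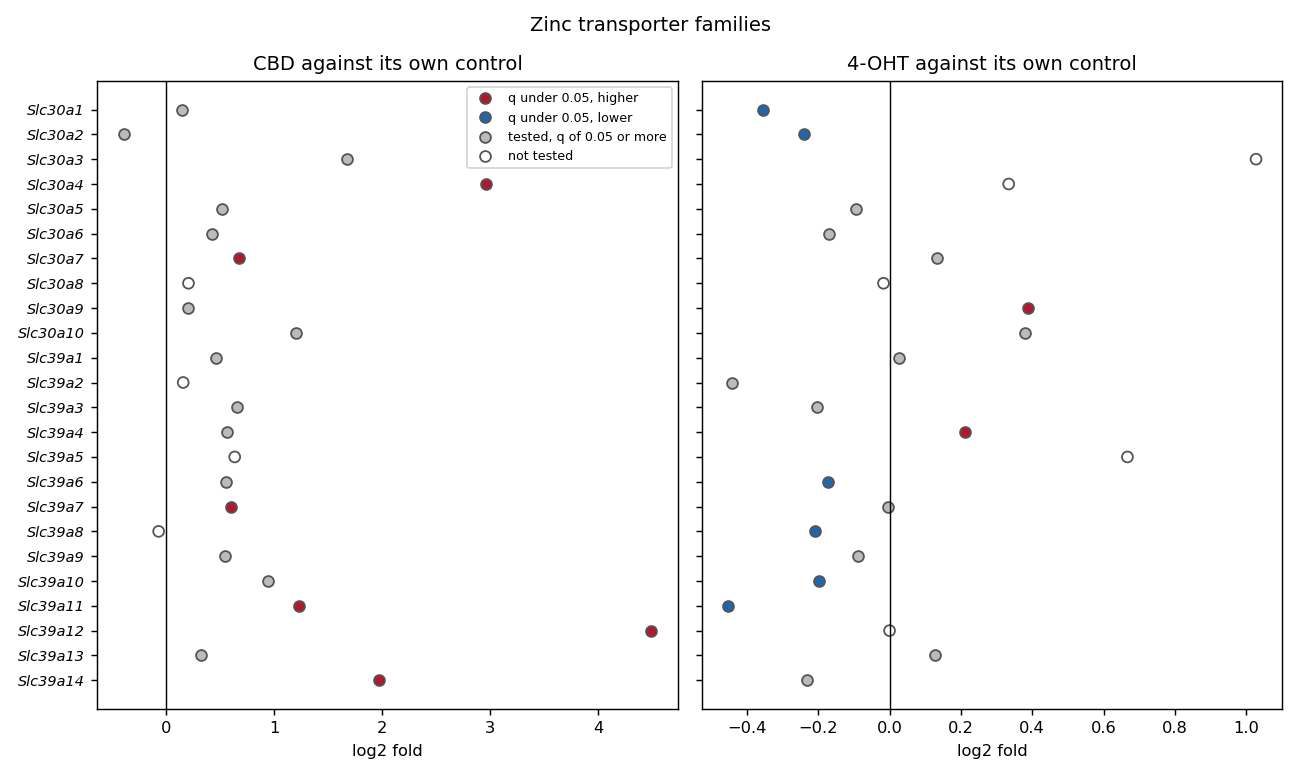
Log2 fold (horizontal axis) of the SLC30 and SLC39 genes for CBD (left) and 4-OHT (right), each over its own control, with the scales differing between panels. Red points rose and blue points fell by the deposited q, grey points were tested and not called, and open points were not tested. The 6 called genes with CBD lie above 0, led by Slc39a12, and 6 of the 8 called with 4-OHT lie below it.

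The metallothionein genes form a cluster on chromosome 8 in mm9, the build of the tables. Mt3 lies from 96676507 to 96678048, Mt2 from 96696518 to 96697467 and Mt1 from 96702989 to 96704227, with 5.52 kb between Mt2 and Mt1 and 18.5 kb between Mt3 and Mt2. Within 500 kb of the cluster the tables list 16 other genes, of which 12 were tested with CBD and 10 with 4-OHT. With CBD 2 of the 12 rose, where 18.4% of all tested genes did. Gnao1, a G protein subunit gene of neurons, went from 0.0333 to 5.59 FPKM. Pllp, which encodes the myelin protein plasmolipin, went from 0.164 to 2.33. With 4-OHT Herpud1, a gene of endoplasmic reticulum stress, rose from 56.5 to 71.2 FPKM.

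The expressed neighbours differed in their order of columns. Nup93, a nuclear pore gene that starts 35.5 kb beyond the Mt1 start, had 44.5 FPKM in the control and 28.4 with CBD, and 60.7 in the control and 59.6 with 4-OHT. On the other side Bbs2, a gene of the primary cilium, stood at 1.44, 1.98, 1.02 and 1.08 FPKM in the same order of columns, and Ogfod1, a ribosomal protein hydroxylase gene, at 15.8, 10.3, 13.2 and 14.03. The polyadenylation gene Nudt21 stood at 193, 183, 134 and 147 FPKM. None of these 4 was called in either table. Bbs2 had the order of columns seen in the metallothioneins, as did Fam192a (44.7, 45.4, 36.5 and 37.9 FPKM) and Rspry1 (25.8, 29.3, 19.4 and 21.0 FPKM), whereas Nup93, Ogfod1 and Nudt21 were lower with CBD than in its control. Cpne2, Fam192a, Rspry1 and Arl2bp were tested and not called in either table, with CBD log2 folds between −0.049 and 0.27. The remaining neighbours, 4930488L21Rik, Slc12a3, 9330175E14Rik and Nlrc5, stayed at or below 0.246 FPKM in every column and were not tested.

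**Figure D5:**
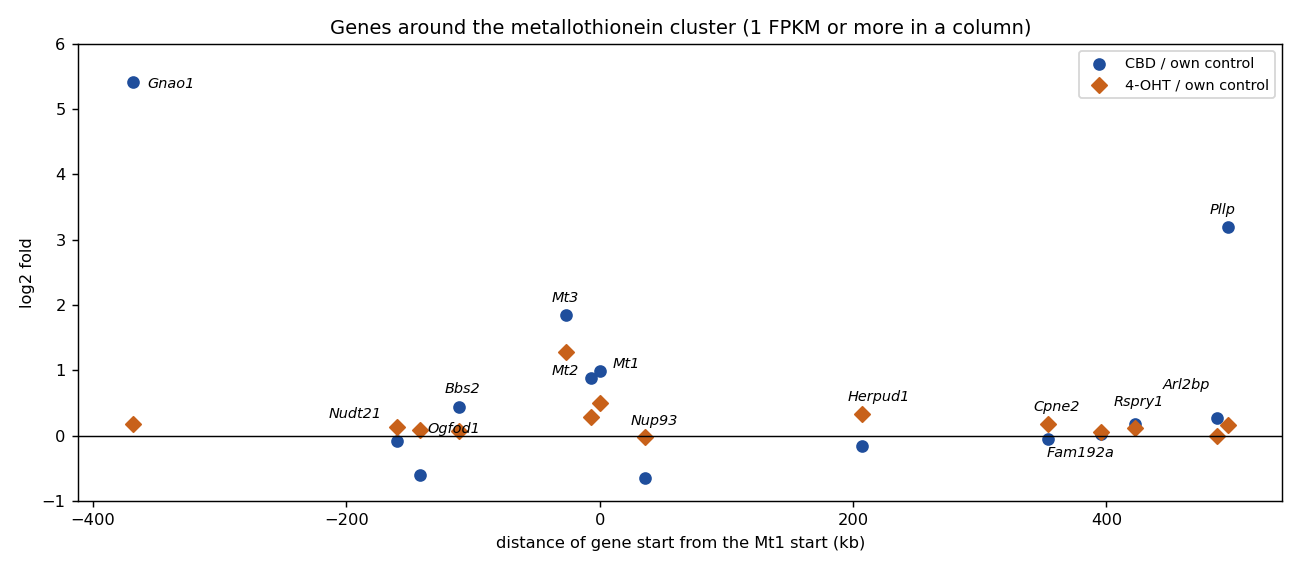
Log2 fold (vertical axis) of genes within 500 kb of the metallothionein cluster that reach 1 FPKM in a column and are named in the text, against the distance of their start from the Mt1 start (horizontal axis, kb), with blue circles for CBD and orange diamonds for 4-OHT over their own controls. Mt1, Mt2 and Mt3 lie above 0 in both comparisons, and Gnao1 and Pllp are the highest with CBD, at 5.41 and 3.20.

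Genes with a 4-column profile most like each metallothionein were sought among 8578 genes by Euclidean distance of centred log2 values, over only 4 values each. Closest to Mt1 were H2-T10, a class I histocompatibility gene, Cd52, a leukocyte surface glycoprotein gene, and Gnb4, a G protein beta subunit gene, at distances of 0.064, 0.076 and 0.082. Closest to Mt2 were Agap2, Xpa and Ctns, the lysosomal cystine transporter gene, at 0.050, 0.050 and 0.057. Mt1 and Mt2 were 0.21 apart, so at least 3 genes were nearer to each of them than they were to one another. Mt3 was 1.78 from Mt1 and 1.96 from Mt2. Its nearest profile was Ypel3, with 5.80, 20.2, 1.51 and 3.64 FPKM in the columns for CBD control, CBD, 4-OHT control and 4-OHT, at a distance of 0.24. Ypel5 and Anxa6, a calcium-binding membrane protein gene, followed at 0.55.

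Other genes of the metal response were read from a list of 10 MTF1 target genes, of which Mt1, Mt2, Slc30a1 and Slc39a10 are 4. With CBD 2 of the 10 rose and none fell (3 and 0 at an unadjusted Cuffdiff p under 0.05), a share near the 18.4% of all tested genes that rose. The median log2 fold was 0.84 with CBD, beside 0.29 for all tested genes, and 0.21 with 4-OHT, beside 0.05. These medians include the 4 genes described above, among them Slc39a10, which MTF1 represses. Slc40a1, the iron exporter ferroportin, rose from 5.56 to 23.7 FPKM, and Sepw1, which encodes selenoprotein W, from 75.0 to 131. With 4-OHT 5 of the 10 rose and 4 fell, against 27.2% and 16.9% of all tested genes. Mt1 and Mt2, described above, are among those that rose, and Slc30a1 and Slc39a10 among those that fell. Ndrg1, a growth arrest gene also induced by hypoxia, rose from 1.65 to 3.70 FPKM and Slc40a1 fell from 22.6 to 8.47. None of the 5 that rose, Mt1 and Mt2 among them, exceeded the control column of the CBD table. Of all genes that rose with 4-OHT, 51.2% did.

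In a list of copper genes, 2 of 12 rose with CBD and none fell (4 and 0 at an unadjusted Cuffdiff p under 0.05), a share near the 18.4% of all tested genes that rose. The median log2 fold was 0.41, beside 0.29 for all tested genes. The genes that rose were Cp, the ferroxidase ceruloplasmin, from 0.0201 to 0.711 FPKM, and Cox17, a copper chaperone of mitochondria, from 276 to 473. With 4-OHT 4 of 11 rose and 4 fell, against the same shares of 27.2% and 16.9%, including Ccs, the copper chaperone of superoxide dismutase, from 25.6 to 34.0 FPKM, and the cytochrome oxidase assembly genes Sco2, from 12.1 to 6.41, and Sco1, from 7.85 to 6.36.

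In the list of heat shock and heavy metal stress genes 2 of 9 rose with CBD and none fell (2 and 0 at an unadjusted Cuffdiff p under 0.05), again near the 18.4% of all tested genes. The median log2 fold was 0.68, beside 0.29. Hmox1, the haem oxygenase gene, rose from 32.8 to 205 FPKM with CBD and from 15.9 to 19.8 with 4-OHT. Hsph1, a chaperone gene, rose from 40.7 to 65.3 FPKM with CBD and fell from 153 to 115 with 4-OHT, both CBD-table values lying below both of the 4-OHT table. With 4-OHT 2 of 8 rose and 1 fell, where 27.2% of all tested genes rose and 16.9% fell. The other gene to rise was the chaperone gene Dnajb1, from 37.1 to 44.7 FPKM.

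Genes that glucocorticoids induce were not called with CBD in Cuffdiff's test, with 0 of 8 (0 higher and 2 lower at an unadjusted p under 0.05) and a median log2 fold of −0.28. Of all genes tested with CBD, 18.4% rose and 7.74% fell, and their median log2 fold was 0.29. With 4-OHT all 7 tested rose, where 27.2% of all tested genes did, and their median log2 fold was 0.36, beside 0.05 for all tested genes. Ddit4, an inhibitor of mTOR signalling, rose from 13.4 to 44.8 FPKM, Dusp1, a phosphatase of MAP kinases, from 0.859 to 1.68, and Tsc22d3, the glucocorticoid-induced leucine zipper gene, from 10.7 to 15.7. Like the metallothioneins, none of the 7 exceeded the control column of the CBD table, where Ddit4 stood at 113 FPKM, while 51.2% of all genes that rose with 4-OHT did.

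Reads of 2 of the 6 genes may be shared with an overlapping entry of the tables, since no strand setting is stated. Mtf1 overlaps 1110065P20Rik, which stood between 14.0 and 27.6 FPKM, and Slc30a1 overlaps 1700034H15Rik, which did not exceed 0.0779 FPKM. Mt2 has an antisense gene, Gm45774, in the GENCODE vM21 annotation, which holds 254 of the 554 distinct windows of 50 bases in the Mt2 transcripts. No such window of Mt1 or Mt3 was found in the transcripts of another gene.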

How the data were processed

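RNA from the 6 samples was sequenced. The submitters' processing notes name Bowtie 0.12.2, Cuffdiff and the mm9 build. The Cuffdiff version, its settings and the gene annotation were not given in the sources used here. The deposited FPKM columns hold 1 value per group, as computed by the authors, so depth and replicate spread are unknown, and no interval or limit of detection was computed. The labels do not say whether samples of a group were separate cultures. The p-value and q-value deposited for each gene come from the authors' Cuffdiff test, and every call rests on that q. Recomputing q over genes with status OK (13751 with CBD, 11232 with 4-OHT) gave differences of at most 1.52e-06. No test was added.

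Log2 folds used a pseudocount of 0.1 FPKM. Starts in the tables were increased by 1. Transcript lengths are the longest GENCODE vM21 transcript per symbol (found for 89.3% of genes), and the length trend, checked on simulated data, was interpolated between the medians of 20 bins. Promoter sequences, found for all 6 genes, are from RefSeq (GRCm38.p6) and their coordinates are not those of mm9. Named genes are the 6 members, every called SLC30 or SLC39 gene, up to 3 called genes with the largest fold per other list, the neighbours within 500 kb (1 is not reported here), and the 3 nearest profiles per metallothionein (genes tested in both tables at 1 FPKM or more in every column, without predicted genes and small RNAs). Cell type markers are named as a check. The members and lists were chosen with earlier results of these data known. A fold was counted as moved by an alternative when it changed by over 1.5-fold. Python 3.11.15, numpy 2.4.6, pandas 2.3.3 and matplotlib 3.10.9 were used.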

Additional observations from a re-analysis of the deposited data

How the results depend on the processing

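Alternatives were pseudocounts of 1 and 0.01 FPKM, the other control column, centring on the median of tested genes, subtraction of the length trend and, chosen after seeing the data, scaling of the columns to the same sum. Of the 12 log2 folds of the 6 genes, none was moved by over 1.5-fold by either pseudocount. None was moved by centring or by scaling, but that outcome was fixed in advance. Each of these shifts all folds of a treatment by nearly the same amount, which was under 1.5-fold. Slc30a1 with CBD, which was not called, turned from 0.14 to −0.047 when centred and −0.27 when scaled. Over genes tested in both tables, the CBD column summed to 856300 FPKM and its control to 641119. The 4-OHT column summed to 655261 FPKM and its control to 633433. Scaling lowered every CBD log2 fold, including Mt1 from 0.98 to 0.56, Mt2 from 0.87 to 0.46 and Mt3 from 1.85 to 1.44. With the other control column, called folds reversed in 4 cases, all with 4-OHT: Mt1 to −0.068, Mt2 to −0.11, Mt3 to −0.82 and Slc39a10 to 1.65. With CBD it moved Mt3 to 3.95 and Slc39a10, not called, to −0.91. Subtraction of the length trend moved Mt3 with CBD to 1.20 and Mt2 to 0.22. The cause was not tested. The number of genes called with 4-OHT was 6, and 2 of them lay on the same side of the other control column, while 4 were called at a threshold of 0.01. Of 36 alternative values of the lists 3 moved, with counts called in CBD at 1 FPKM or more in both controls of 1 exporter, 2 importers and 1 copper gene in place of 2, 4 and 2. No paired analysis was possible because the tables give 1 value per group, and for the same reason no sample could be left out.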
